A study of Rattus norvegicus with 46 samples.

Results

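The genes described are chaperones of the heat shock family and of the endoplasmic reticulum (ER). They were taken as every probe set, the group of array probes that reads 1 transcript, whose single symbol in the platform table was Hspa8, Hsp90ab1, Hspb1, Hspd1, Hspe1, Hspa5, Hsp90b1, Pdia3, Calr or Canx. That rule gave 13 probe sets of 9 genes among 15866 probe sets that were no control, and all 13 passed the filter on dim probe sets that left 11106. The probe set that names Hspa8, the constitutive cytosolic HSP70, also carries a second symbol, so Hspa8 fell outside the rule and is not described. Of the 13, 3 read cytosolic chaperones (Hsp90ab1, Hspb1), 2 read mitochondrial chaperonins (Hspd1, Hspe1) and 8 read ER chaperones (Hspa5, Hsp90b1, Pdia3, Calr, Canx).

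The samples were pieces of about 30 mg of frontal lobe from male F344 rats of 11 to 12 weeks, taken 96 hours after 1 dose of chlorpyrifos, an organophosphate insecticide, or of vehicle. RNA of each animal, 15 ug in all, went onto 1 Affymetrix rat array, and the rats fell into 3 experiments, A, B and C. The 39 arrays described were, in experiment A, 3 animals on vehicle, 3 at 1 mg/kg, 5 at 10 mg/kg and 3 at 50 mg/kg. In experiment B they were 4 on vehicle, 3 at 0.5 mg/kg, 1 at 5 mg/kg and 3 at 30 mg/kg. Experiment C gave 3 on vehicle, 4 at 1 mg/kg, 3 at 5 mg/kg and 4 at 10 mg/kg. The 50 mg/kg dose was therefore given in experiment A alone, and 0.5 and 30 mg/kg in experiment B alone. Since each piece holds many cell types, fewer cells of a type and less RNA per cell cannot be told apart.

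Values are log2 normalised intensity, and a change is dosed minus vehicle in the same log2 units, ± SE, from a limma fit over the 39 arrays with experiment as a term and Benjamini-Hochberg adjustment over 11106 probe sets. Array medians before normalisation ran from 112.2 to 285.6 units of intensity, and log2 intensity of any 2 arrays correlated at 0.935 to 0.979. An array of 1 mg/kg animal 1 in experiment C stood apart, with a beta-actin 3′/5′ signal ratio of 4.72 against 1.23 to 2.15 elsewhere, a measure of how much of the transcript's length the labelled RNA covered. The single 5 mg/kg array of experiment B had the lowest median, 112.2 against 228.3 or more in the other arrays. The labels call 3 arrays of experiment C, from vehicle animal 1 and from animals 2 and 3 at 10 mg/kg, a first repeat.

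Chaperones bind unfolded proteins and help them fold, and cells raise different sets of them according to where proteins fail. In the cytosol, heat shock factor binds heat shock elements and raises HSP90, HSP70 and the small heat shock proteins. In the ER, the unfolded protein response raises Hspa5, Hsp90b1 and the lectin chaperones through ER stress response elements, which ATF6 and NF-Y bind. Neurons rely on both systems, and in brain the small heat shock protein Hspb1 is known from glia, vessels and injured neurons.

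The promoters of the 2 systems carry different known elements, and their sites are shown as background. These elements are already known from genes of these systems, so finding them here is no independent result. Windows of RefSeq's promoter table, from 250 bases before to 50 bases after the start it gives a gene (rat build GRCr8), were used for 7 of the 9 genes, all but Pdia3 and Canx. For Hsp90ab1 and Hspd1 that start lies inside the gene's annotated span, so another start upstream of it was not covered to the same length. The ER stress response element was searched on both strands as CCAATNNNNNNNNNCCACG, and it was found in the windows of Hspa5, Hsp90b1 and Calr and in 0 of the 4 windows of genes outside the ER. Since 2 of the 5 ER genes have no window here, this gives no share for the ER members as a whole. Among all 33469 windows of that length, 22 (0.0657%) held it. Capitals mark the element, and 8 bases stand on each side of it.
Hspa5, chr3:38452973-38452991, plus strand: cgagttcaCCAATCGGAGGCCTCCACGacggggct
Hsp90b1, chr7:23012451-23012469, minus strand: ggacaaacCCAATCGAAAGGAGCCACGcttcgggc
Hsp90b1, chr7:23012347-23012365, minus strand: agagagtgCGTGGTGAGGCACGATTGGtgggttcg
Calr, chr19:40213135-40213153, plus strand: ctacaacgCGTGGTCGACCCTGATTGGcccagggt
Each is written 5′ to 3′ on the strand of its gene, so the second Hsp90b1 element and that of Calr appear in the opposite orientation. Counted to the start in that table, the Hspa5 element began 43 bases before it, the Hsp90b1 elements 176 and 72 bases before theirs and the Calr element 232. These are matches of letters, not measured binding.

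Of the 4 windows of genes outside the ER, 3 held heat shock elements. A heat shock element of 3 units was searched as GAANNTTCNNGAA or TTCNNGAANNTTC, and 267 of 33469 windows (0.798%) held one. Hspd1 and Hspe1, which encode the HSP60 and HSP10 parts of the mitochondrial folding chamber, lie head to head on chromosome 9, and their windows overlap by 211 bases. They therefore share the same element, shown here in capitals on the strand of Hspe1 within its whole window.
Hspe1, chr9:64084077-64084376, plus strand: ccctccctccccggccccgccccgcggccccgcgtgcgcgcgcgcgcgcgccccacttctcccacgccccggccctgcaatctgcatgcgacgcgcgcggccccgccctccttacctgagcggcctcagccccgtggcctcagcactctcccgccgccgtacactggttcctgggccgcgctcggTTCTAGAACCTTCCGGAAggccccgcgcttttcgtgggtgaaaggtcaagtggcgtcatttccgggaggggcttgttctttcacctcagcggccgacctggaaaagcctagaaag
The run in capitals holds 2 overlapping matches, which began 65 and 60 bases before the start of Hspe1. Hspb1 held no element of 3 units but 2 matches of the shorter form of 2 units, GAANNTTC or TTCNNGAA, which 5305 windows (15.9%) held.
Hspb1, chr12:26432423-26432430, minus strand: caactagaGAAGTTTCcagatggg
Hspb1, chr12:26432403-26432410, minus strand: tgggggcaGAACCTTCctggccct
The Hsp90ab1 window held none of these motifs, and the windows of Hspa5, Hsp90b1 and Calr held no heat shock element of 2 or 3 units.

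None of the 13 probe sets passed the threshold at any dose. The share of all 11106 probe sets called at an adjusted p under 0.05 was 0% at 0.5, 1, 5, 10 and 30 mg/kg and 0.018% at 50 mg/kg, so calls were rare among all genes and not only among chaperones. In the fit of a trend with log2(dose + 1), 0% were called and no chaperone was, with Calr alone at an unadjusted p under 0.05. The share of all probe sets past that unadjusted limit was not counted for the trend. At an unadjusted p under 0.05 there were 4 of 13 chaperone probe sets at 50 mg/kg, all higher than vehicle, where 7.99% of all probe sets were past that limit. Calr, lower than vehicle, was the single one at 1 mg/kg (2.54% of all probe sets) and at 10 mg/kg (2.68%). There was none at 0.5, 5 or 30 mg/kg, where 846, 275 and 1027 of all 11106 probe sets were past that limit.

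**Figure D1:**
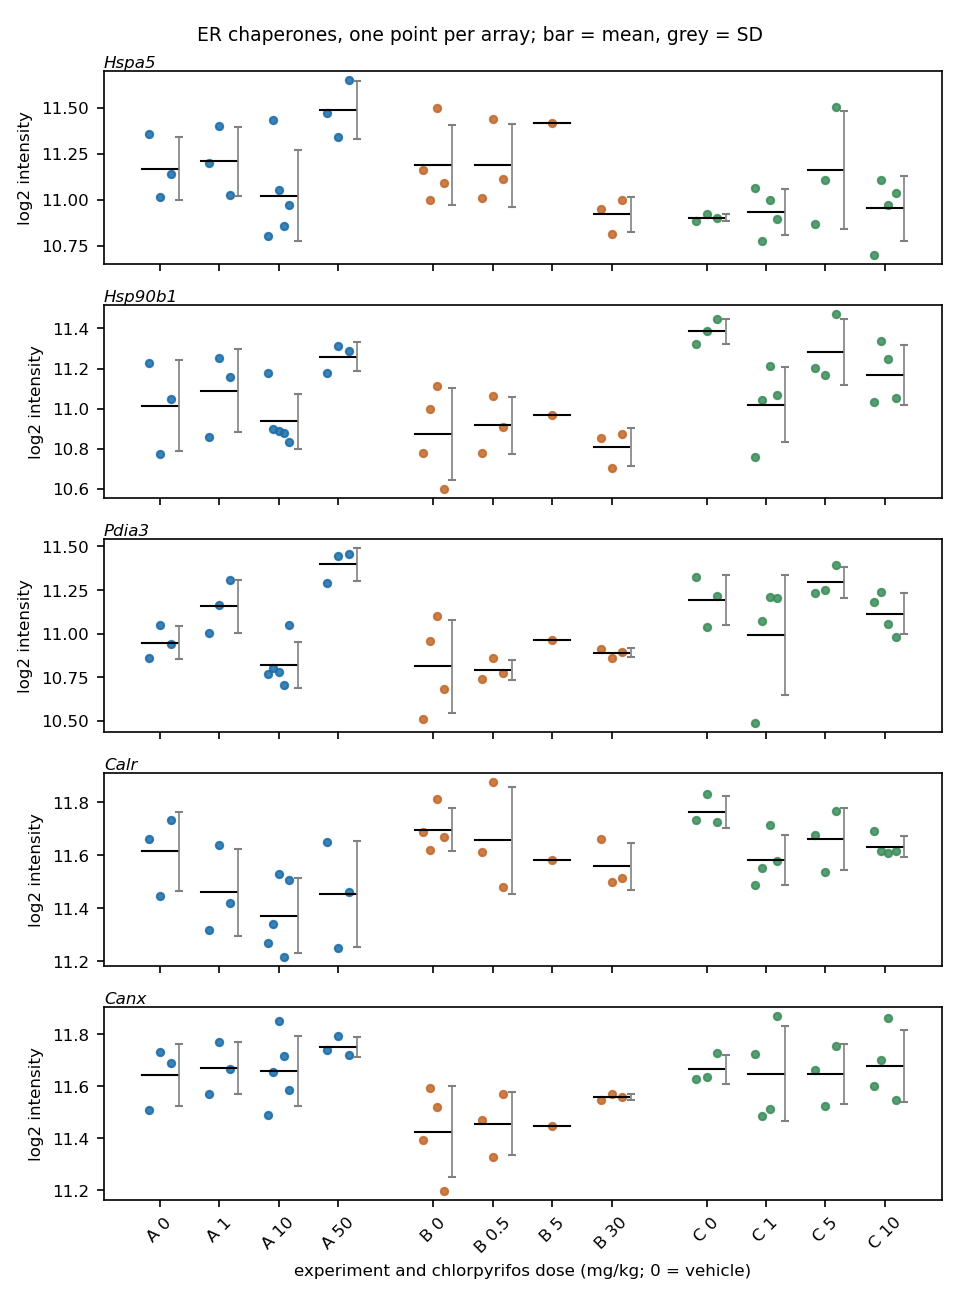
Log2 normalised intensity of the 5 ER chaperones in each of the 39 arrays, by experiment and dose in mg/kg, with vehicle at 0. Points are arrays, black bars are group means and grey bars are SD. Pdia3 and Hspa5 have their highest group means, 11.40 and 11.49, at 50 mg/kg in experiment A, and the Calr means of all 9 dosed groups lie below the vehicle mean of their experiment.

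Among the ER chaperones, Pdia3 was the member with the smallest p. It encodes ERp57, a disulfide isomerase that works on glycoproteins held by calreticulin and calnexin. Its brighter probe set, 1398788_at, read 11.29, 11.44 and 11.46 in the 50 mg/kg animals, against 10.86, 11.05 and 10.94 in the vehicle animals of experiment A. All 3 dosed arrays lay above all 3 vehicle arrays, which 8.35% of all probe sets also showed in that direction. The change was 0.40 ± 0.13, with an unadjusted p of 0.00561 and an adjusted p of 0.383 in limma. For 3 animals against 3, an exact permutation test could not go below 0.1. The second Pdia3 probe set, 1392920_at, changed by 0.10 ± 0.12 at the same dose, and the 2 probe sets correlated at -0.205 over the 39 arrays. The probe sets of Pdia3 thus disagreed. The order of the Pdia3 group means ran from 11.40 at 50 mg/kg in experiment A, through 11.29 at 5 mg/kg and 11.19 in vehicle of experiment C, down to 10.79 at 0.5 mg/kg in experiment B. Of its 11 steps between neighbouring groups, 1 was larger than the larger SD of the pair, the step below the 50 mg/kg group.

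Hspa5 (BiP), the ER HSP70 that holds the stress sensors inactive, read 11.47, 11.34 and 11.65 at 50 mg/kg, against 11.36, 11.01 and 11.14 on vehicle. The lowest dosed array lay just under the highest vehicle array, so the groups overlapped. Its change was 0.36 ± 0.14 (unadjusted p = 0.0126, adjusted p = 0.467 in limma). At 30 mg/kg it lay the other way. The 3 arrays read 10.95, 10.82 and 11.00, against 11.16, 11.00, 11.50 and 11.09 on vehicle in experiment B, a change of -0.27 ± 0.14 (adjusted p = 0.553 in limma). At 5 mg/kg the change was 0.22 ± 0.11 (adjusted p = 1 in limma), and the animals of experiment C spread widely there, at 10.87, 11.11 and 11.51. Hspa5 thus followed no order with dose, and its trend was 0.0041 ± 0.0191 per unit of log2(dose + 1). Its highest group mean was that of 50 mg/kg in experiment A (11.49) and its lowest that of vehicle in experiment C (10.90 ± 0.02, SD, n = 3).

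Hsp90b1 (GRP94), the ER HSP90, read 11.18, 11.31 and 11.29 at 50 mg/kg, against 11.23, 10.77 and 11.05 on vehicle, a change of 0.15 ± 0.12 (adjusted p = 0.825 in limma). In experiment C its 3 dosed means were below that of vehicle, with no order by dose. The 1 mg/kg arrays read 10.76, 11.04, 11.21 and 11.07, against 11.32, 11.38 and 11.45 on vehicle, so that all dosed arrays were below all vehicle arrays, as 2.21% of all probe sets were. Within that experiment the difference was -0.36 ± 0.12 (adjusted p = 0.61 in limma), and at 10 mg/kg it was -0.22 ± 0.12 (adjusted p = 0.785 in limma). Between them, the 5 mg/kg arrays read 11.20, 11.17 and 11.47, against the same vehicle arrays, and overlapped with them, a difference of -0.10 ± 0.13 (adjusted p = 0.943 in limma). The lowest of the 1 mg/kg arrays, 10.76, was the one with the high actin ratio. Without it, the change at 1 mg/kg over both experiments was -0.09 against -0.15 with it. In experiment A at 1 mg/kg the arrays read 10.86, 11.25 and 11.16, against 11.23, 10.77 and 11.05 on vehicle, a difference of 0.07 ± 0.13 (adjusted p = 1 in limma). The difference of the 1 mg/kg effect, experiment C minus experiment A, was -0.44 ± 0.18 (unadjusted p = 0.021, adjusted p = 0.616 in limma), and of all probe sets 0% were called in that contrast.

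Calr was the member with the steadiest direction. It encodes calreticulin, the soluble lectin and calcium store of the ER. In each of the 9 dosed groups its mean was below that of vehicle in the same experiment, by 0.04 to 0.24, although groups of an experiment share the same vehicle arrays. Other probe sets came close, as Hsp90ab1 1375335_at was below vehicle in 8 of 9 groups and Pdia3 1392920_at above it in 8 of 9. The share of all probe sets with 1 direction in all 9 groups was not counted. For Calr, the values by dose follow. At 10 mg/kg the change was -0.19 ± 0.06 (unadjusted p = 0.00616, adjusted p = 0.999 in limma). The 5 arrays of experiment A at that dose ran from 11.22 to 11.53, against 11.66, 11.45 and 11.73 on vehicle. In experiment C the 4 arrays read 11.69, 11.61, 11.61 and 11.62, against 11.73, 11.83 and 11.72 on vehicle, and did not overlap with them, as 2.98% of all probe sets did not in that direction. At 1 mg/kg the change was -0.17 ± 0.07 (adjusted p = 1 in limma), and the 4 arrays of experiment C (11.49, 11.55, 11.71 and 11.58) again lay below all 3 vehicle arrays, as 2.21% of all probe sets did. The changes were -0.04 at 0.5 mg/kg, -0.12 at 5 mg/kg and -0.14 at both 30 and 50 mg/kg, with no graded order. The trend was -0.03 ± 0.01 per unit of log2(dose + 1) (unadjusted p = 0.0268, adjusted p = 0.559 in limma). Calr thus lay opposite to Pdia3 and Hspa5 at 50 mg/kg, where it read 11.65, 11.25 and 11.46, against 11.66, 11.45 and 11.73 on vehicle.

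Canx, the membrane-bound partner of calreticulin, was read by 3 probe sets. Its brightest probe set, 1371686_at, spanned 11.43 (vehicle, experiment B) to 11.75 (50 mg/kg, experiment A) in group means. At 50 mg/kg it read 11.74, 11.79 and 11.72, against 11.51, 11.73 and 11.69 on vehicle, a change of 0.10 ± 0.09 (adjusted p = 0.844 in limma). At 30 mg/kg the change was 0.13 ± 0.09 (adjusted p = 0.711 in limma). The probe set 1371687_at read 4.87 in the array with the high actin ratio and 8.85 or more in every other array, and its change at 1 mg/kg was 0.01 without that array against -0.71 with it. The third, 1388442_at, had means below vehicle at all 3 doses of experiment C, with differences of -0.31 ± 0.13 at 1 mg/kg (unadjusted p = 0.027, adjusted p = 0.69 in limma), -0.24 ± 0.14 at 5 mg/kg and -0.18 ± 0.13 at 10 mg/kg. The 1 mg/kg arrays there read 10.35, 10.56, 10.75 and 11.11, against 11.04, 10.90 and 11.07 on vehicle, so the groups overlapped, and the lowest, 10.35, was again the array with the high actin ratio. Without it, the change at 1 mg/kg over both experiments was 0.03 against -0.05 with it. At 1 mg/kg in experiment A the probe set differed by 0.23 ± 0.14, and the 1 mg/kg effect in C minus that in A was -0.54 ± 0.20 (unadjusted p = 0.00978, adjusted p = 0.593 in limma). Between the 3 Canx probe sets the correlation over arrays was -0.199, 0.282 and 0.531.

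**Figure D2:**
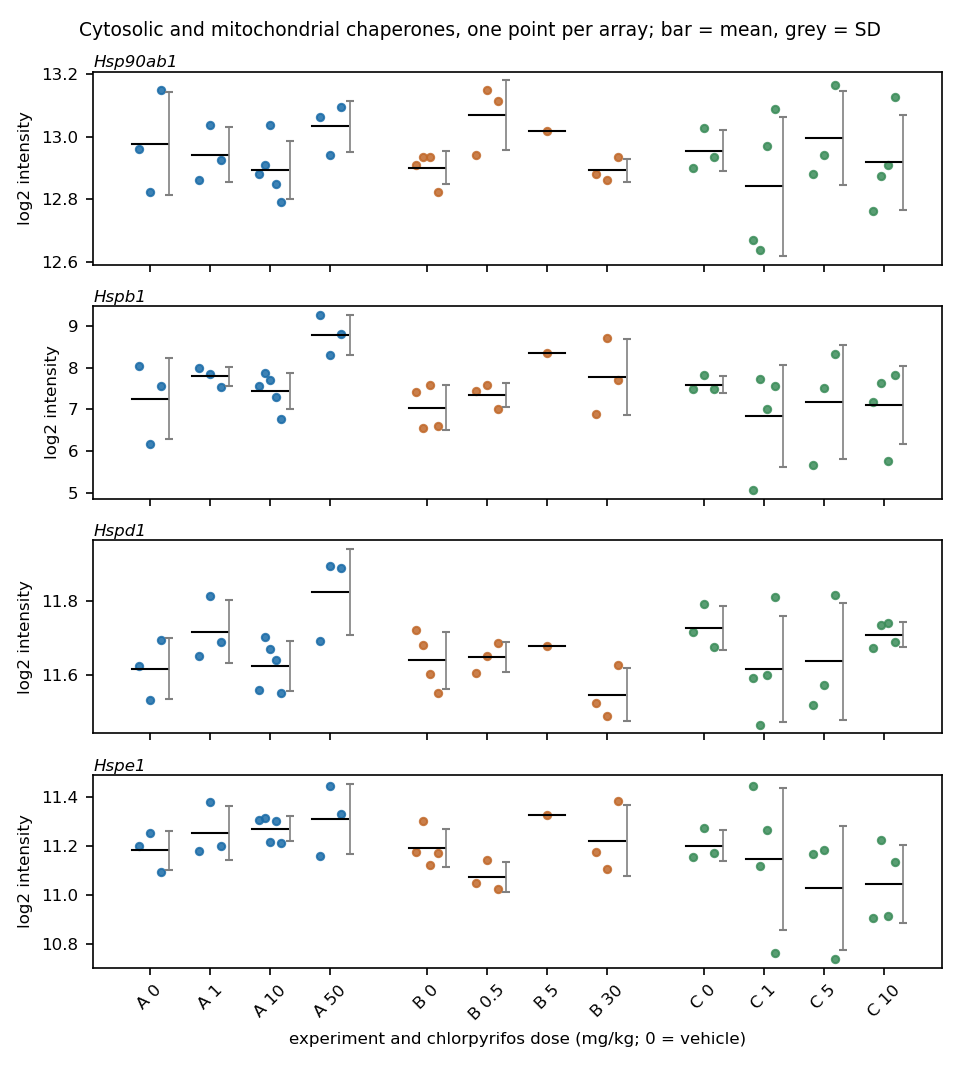
Log2 normalised intensity of the cytosolic chaperones Hsp90ab1 and Hspb1 and the mitochondrial chaperonins Hspd1 and Hspe1 in each of the 39 arrays, by experiment and dose in mg/kg, with vehicle at 0. Points are arrays, black bars are means and grey bars are SD. Hspb1 spreads from 5.06, in the array with the high actin ratio, to 9.25, while the brighter Hsp90ab1 probe set stays between 12.64 and 13.16.

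Of the cytosolic members, Hsp90ab1, the constitutive HSP90 beta, hardly moved in its brighter probe set, while its second lay below vehicle in 8 of 9 dosed groups. Its brighter probe set, 1375336_at, had an SD of 0.12 over the 39 arrays and group means between 12.84 (1 mg/kg, experiment C) and 13.07 (0.5 mg/kg, experiment B). None of the 11 steps between neighbouring group means exceeded the larger SD of the pair. At 50 mg/kg it read 13.06, 12.94 and 13.10, against 12.96, 12.82 and 13.15 on vehicle, a change of 0.06 ± 0.09 (adjusted p = 0.924 in limma). At 0.5 mg/kg all 3 arrays (12.94, 13.15 and 13.11) lay above the 4 vehicle arrays (12.91, 12.93, 12.93 and 12.82), as 4.41% of all probe sets did in that experiment. The change there was 0.16 ± 0.09 (adjusted p = 0.727 in limma), and the second probe set, 1375335_at, changed by -0.10 ± 0.16.

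Hspb1 (HSP27), the inducible small heat shock protein, was the member that varied most. Its SD over the 39 arrays was 0.84, against 0.10 to 0.24 in the probe sets that stand for the other 8 genes. Hspb1 was also the dimmest of them. Its mean of 7.45 lay at percentile 38.98 of all probe sets, against 94.2 to 99.6 for the other 8. The part of its dimness in its spread and changes was not tested. At 50 mg/kg it read 9.25, 8.29 and 8.81, against 8.03, 6.18 and 7.57 on vehicle in experiment A, and all 3 dosed arrays lay above all 3 vehicle arrays, as 8.35% of all probe sets did. The change was 1.28 ± 0.55 (unadjusted p = 0.0262, adjusted p = 0.545 in limma), the largest of any member at any dose. Vehicle animals alone ranged from 6.18 to 8.03 in experiment A and from 6.56 to 7.58 in experiment B. At 30 mg/kg the arrays read 6.89, 8.72 and 7.71, against 7.42, 6.56, 7.58 and 6.61 on vehicle, a change of 0.54 ± 0.55 (adjusted p = 0.838 in limma). The single 5 mg/kg array of experiment B read 8.35, yet the 5 mg/kg arrays of experiment C read 5.66, 7.52 and 8.34, against 7.48, 7.83 and 7.48 on vehicle. The highest and the lowest values at 5 mg/kg thus lay on both sides of vehicle. The lowest value of all, 5.06, came from 1 mg/kg animal 1 of experiment C, the array with the high actin ratio. The change at 1 mg/kg was 0.32 without that array and -0.02 with it. The trend was 0.13 ± 0.06 per unit of log2(dose + 1) (unadjusted p = 0.0523, adjusted p = 0.652 in limma).

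Neither gene of the mitochondrial pair passed the threshold. Hspd1 read 11.69, 11.89 and 11.89 at 50 mg/kg, against 11.63, 11.53 and 11.69 on vehicle, a change of 0.17 ± 0.08 (unadjusted p = 0.0264, adjusted p = 0.545 in limma). Hspe1 read 11.16, 11.44 and 11.33, against 11.20, 11.25 and 11.09 on vehicle, a change of 0.07 ± 0.11 (adjusted p = 0.923 in limma). At 30 mg/kg Hspd1 changed by -0.11 ± 0.08 and Hspe1 by -0.0035 ± 0.1131, and at 0.5 mg/kg Hspe1 changed by -0.15 ± 0.11. Their windows share a promoter region, and over the arrays their Pearson r was -0.057 (permutation p = 0.73, adjusted p = 0.848 over 36 pairs), and it was 0.527 in experiment A, 0.224 in B and -0.499 in C. Under scaling to equal medians alone it was 0.463, so whether the pair varied together depended on the normalisation.

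**Figure D3:**
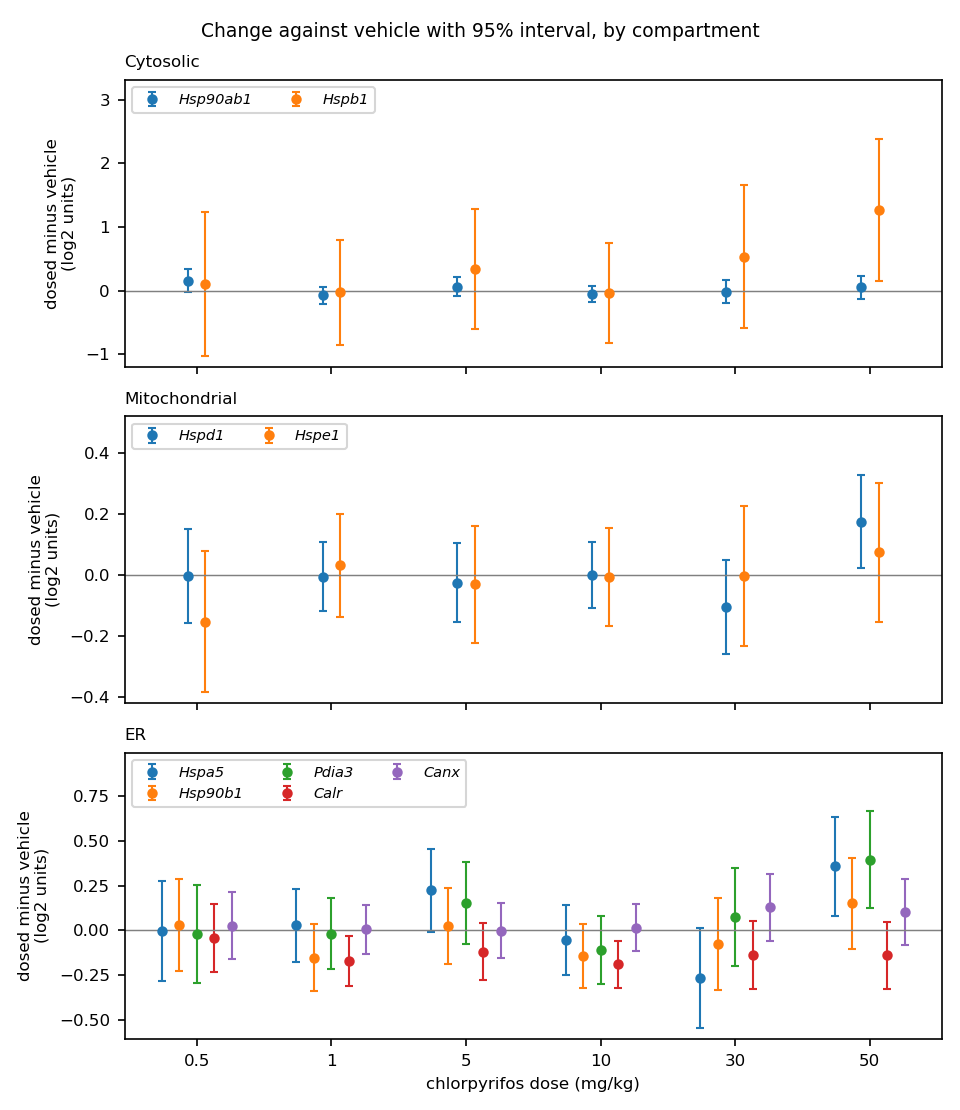
Change against vehicle (dosed minus vehicle, log2 units) of the 9 chaperone genes at each dose, in panels for cytosolic, mitochondrial and ER members, with axes of different height. Points are limma estimates and bars are 95% intervals. At 50 mg/kg the intervals of Pdia3, Hspa5, Hspb1 and Hspd1 exclude 0 before adjustment, and the interval of Hspb1 is the widest.

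Set side by side, the ER and cytosolic medians lay farthest apart at 50 mg/kg, mainly through Hspb1. With 1 probe set per gene, the median change at 50 mg/kg was 0.15 in 5 ER members, of which 4 were higher than vehicle, 0.67 in 2 cytosolic members and 0.12 in 2 mitochondrial members. Over all 11106 probe sets the median was 0.0056. The cytosolic value is the midpoint of Hspb1 at 1.28 and Hsp90ab1 at 0.06. The ER median minus the cytosolic median was -0.51 at 50 mg/kg, and it was 0.03 once Hspd1 and Hspe1 were counted with the cytosolic genes. The same difference was -0.13 at 0.5 mg/kg, 0.03 at 1 mg/kg, -0.18 at 5 mg/kg, -0.07 at 10 mg/kg and -0.34 at 30 mg/kg. Per array, the ER median minus the cytosolic median had an SD of 0.393 between replicates. That is the spread of levels in single arrays, not of these 6 values, which are differences between fitted changes of groups. It therefore does not tell which of the 6 exceed their own spread, and they were not tested. At 10 mg/kg 4 of 5 ER members and both cytosolic members were below vehicle, with medians of -0.11 and -0.04. ER members lay on both sides of vehicle at each of the 6 doses.

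Within single experiments, each dosed group was also set against its own vehicle animals with 1 mean per group. Again limma called 0 of 13 chaperone probe sets in any of the 9 groups, and at an unadjusted p under 0.05 there were 4 at 50 mg/kg in A, 1 at 10 mg/kg in A, 3 at 1 mg/kg in C and 0 in the other 6 groups. Of all probe sets, 9.56%, 2.89% and 6.69% were past that limit in the 3 groups named. In the other 6 the share was 3.21% for 1 mg/kg in A, 6.68% for 0.5 mg/kg, 7.21% for 5 mg/kg and 10.2% for 30 mg/kg in B, 6.52% for 5 mg/kg in C and 6.63% for 10 mg/kg in C. The 3 at 1 mg/kg in C were Hsp90b1 and the Canx probe sets 1371687_at and 1388442_at. In each of them the lowest array of that group was the one with the high actin ratio. The count at an unadjusted p under 0.05 was not taken without that array, which also enters the 1 mg/kg difference between C and A. The single 5 mg/kg array of B is assumed to vary like the other groups. Of all probe sets, 0.036% were called at 50 mg/kg in experiment A, 0.009% at 10 mg/kg in A, 0.018% in the single 5 mg/kg array of B and 0% in the other 6 groups. At 50 mg/kg Pdia3 differed by 0.45 ± 0.14 (1.37-fold, adjusted p = 0.213 in limma) and Hspb1 by 1.52 ± 0.60 (2.88-fold, adjusted p = 0.371 in limma). At 1 mg/kg in experiment A all 3 arrays of the Pdia3 probe set 1392920_at (8.42, 8.69 and 8.40) lay above the vehicle arrays (8.39, 8.33 and 8.30), as 4.79% of all probe sets did. The doses shared by 2 experiments gave no call on a difference of effect, either among the 13 or among all probe sets (0% for 1 and 10 mg/kg, C minus A, and 0% for 5 mg/kg, C minus B). At an unadjusted p under 0.05 there were 3 chaperone probe sets for 1 mg/kg, where 7.35% of all probe sets were past that limit. There were 0 for 10 mg/kg (6.62% of all) and 0 for 5 mg/kg (10.2% of all) in limma.

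The pieces of experiment A also differed in their cell and region markers, and these values stand beside the 50 mg/kg changes. The summed intensity of 8 of 8 astrocyte markers was 37740 to 41220 in the 50 mg/kg animals, against 32980 to 36080 in the vehicle animals. That of 6 of 6 neuronal markers was 24000 to 28940, against 30160 to 34350. Of 7 listed striatal genes 6 were measured, and they summed to 8274 to 17820, against 3435 to 14790. All 6 were higher at 50 mg/kg in the fit, with a median change of 0.93, and 0 were called. The 3 hypothalamic peptide genes summed to 1087 to 13920, against 364.6 to 1282, and all 3 were higher, with a median change of 3.20. The 1 called was Pmch, the melanin-concentrating hormone precursor, at 2.24 ± 0.38 (adjusted p = 0.0156 in limma), while Avp and Oxt had adjusted p-values of 0.226 and 0.345. The astrocyte and neuron sums did not overlap between these 2 groups. In the fit 6 of 8 astrocyte markers were higher and 5 of 6 neuronal markers lower, and 0 of either were called. At 1 mg/kg in A the neuron sums (29230 to 30070) also lay below vehicle, while the astrocyte sums (34790 to 38620) overlapped with it. Neuron sums in vehicle animals of C were 23300 to 26170. The part of tissue makeup in the chaperone changes was not tested. The actin ratio was 1.25 to 1.59 in the 50 mg/kg arrays and 1.49 to 1.85 in the vehicle arrays.

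A wider list of the same systems gave no call either. Of 59 cytosolic and mitochondrial chaperone, co-chaperone and heat shock factor genes, 53 had a probe set and 49 passed the filter. Of 51 genes of ER folding, ER-associated degradation and the unfolded protein response, 49 had a probe set and 44 passed. In each of the 2 lists, 0 genes were called at any dose. At 50 mg/kg, 33 of 49 and 32 of 44 were higher than vehicle, with medians of 0.10 and 0.07 where all probe sets had 0.0056, and 5715 of all 11106 were higher. At an unadjusted p under 0.05, where 7.99% of all probe sets lay in either direction, 6 of each list were higher and 1 ER gene was lower. The genes with the smallest p at that dose were Bag1, a nucleotide exchange factor of HSP70 (0.46 ± 0.14, adjusted p = 0.304), Sec63, a partner of the ER translocon (-0.36 ± 0.13, adjusted p = 0.432), and Bag3, which links HSP70 to small heat shock proteins and autophagy (0.47 ± 0.18, adjusted p = 0.467, all in limma).

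At the lower doses the genes with the smallest p were others. At 0.5 mg/kg they were Dnajb5, a J protein (0.37 ± 0.15), Trap1, the mitochondrial HSP90 (0.19 ± 0.10), and Sil1, an exchange factor of Hspa5 (0.43 ± 0.23). Dnajb1, the HSP40 that heat shock factor raises, led at both 1 mg/kg (0.18 ± 0.08), before Hspa12a and Bag5, and 5 mg/kg (0.20 ± 0.09), before Calu and Hspa9. At 10 mg/kg they were Ddit3, the CHOP transcription factor of ER stress (0.20 ± 0.08), Dnajb5 (0.19 ± 0.10) and the HSP90 co-chaperone Ptges3 (-0.07 ± 0.05). At 30 mg/kg they were the HSP90 co-chaperone Cdc37 (0.19 ± 0.07), the mitochondrial HSP70 Hspa9 (0.33 ± 0.13) and the J protein Dnajc7 (0.25 ± 0.10). The adjusted p of these genes lay between 0.397 and 1 in limma. Doses within an experiment share their vehicle arrays.

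**Figure D4:**
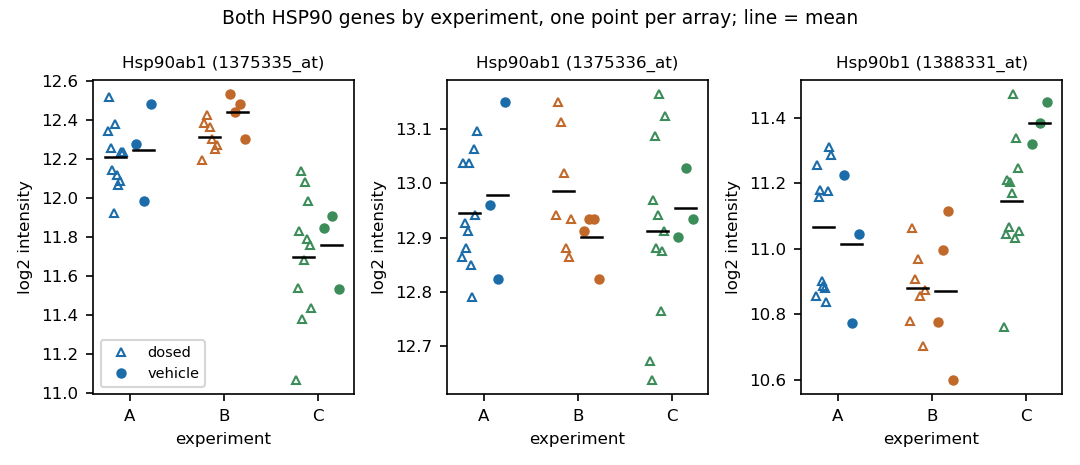
Log2 normalised intensity of both Hsp90ab1 probe sets and of Hsp90b1 in experiments A, B and C, with dosed arrays as open triangles left of vehicle arrays as filled circles, and group means as lines. In the vehicle arrays of experiment C the 1375335_at probe set of Hsp90ab1 lies low and Hsp90b1 lies high, while 1375336_at stays level.

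The chaperone differences that passed the threshold lay between experiments, not between doses. In vehicle animals alone, a moderated F test over the 3 experiments called 7.8% of all probe sets, and 2 of the 13 chaperone probe sets, both of HSP90 genes. The Hsp90ab1 probe set 1375335_at averaged 11.76 ± 0.20 in experiment C (SD, n = 3), against 12.44 ± 0.10 in B (n = 4) and 12.25 ± 0.25 in A (n = 3), with an adjusted p of 0.0248 in limma. Hsp90b1 lay the other way, at 11.39 ± 0.06 in C, 10.87 ± 0.23 in B and 11.02 ± 0.23 in A (adjusted p = 0.0213 in limma). In C every vehicle array of 1375335_at (11.84, 11.90 and 11.53) was below every vehicle array of A and B, and every vehicle array of Hsp90b1 was above them. These are the arrays that gave the 2 calls, so this adds no support to them. The share of all probe sets separated in this way was not counted. The second Hsp90ab1 probe set, 1375336_at, did not follow, with 12.95 in C, 12.90 in B and 12.98 in A (adjusted p = 0.844 in limma). Both calls were lost without vehicle animal 1 of B (adjusted p = 0.0605 and 0.0567) or vehicle animal 3 of C (0.176 and 0.114). The call on Hsp90ab1 was also lost without vehicle animal 3 of B (0.0506), without vehicle animal 1 of C (0.0572) and without the arrays labelled as a first repeat (0.0584). The call on Hsp90b1 was also lost without vehicle animal 4 of B (0.0609) and without vehicle animal 2 of C (0.0669). Beta-actin ratios of the vehicle arrays were 1.39 to 1.44 in C, 1.66 to 2.15 in B and 1.49 to 1.85 in A, and their part in these differences was not tested. The other 11 probe sets had adjusted p-values from 0.144 (Pdia3, 1398788_at) to 0.995 (Hspe1).

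**Figure D5:**
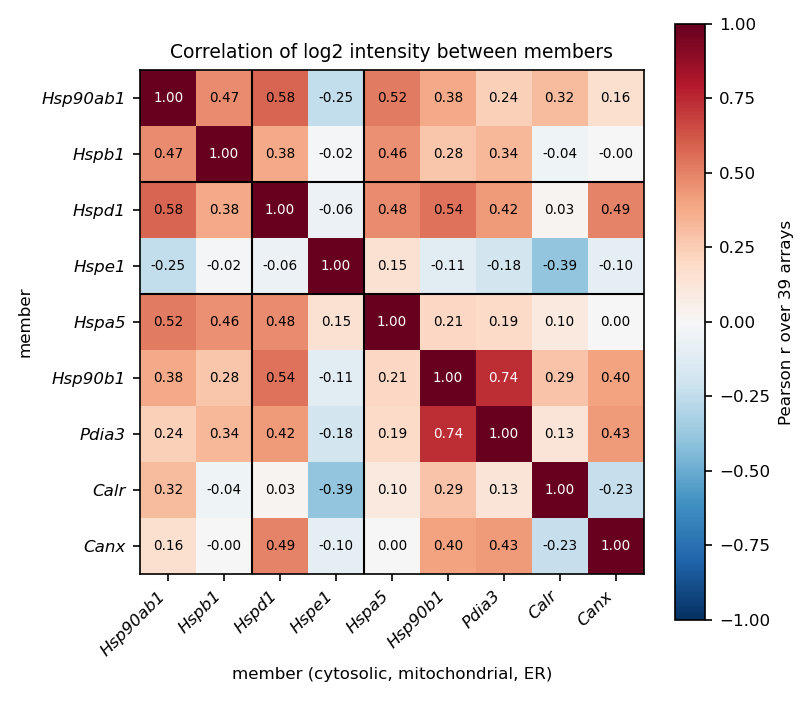
Pearson correlation of log2 normalised intensity between the 9 chaperone genes over the 39 arrays, each gene read by its brightest probe set. Lines separate cytosolic, mitochondrial and ER members. Red is positive and blue negative. The pair Hsp90b1 and Pdia3 is the strongest at 0.742, and Hspe1 has no positive value above 0.16.

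Over the arrays, pairs called as correlated lay both within and between compartments. Of 36 pairs of genes, 13 had an adjusted p under 0.05 by permutation of Pearson's r, adjusted over the 36 pairs, and 12 of them were positive. These were 3 of 10 pairs within the ER, 2 of 10 between cytosol and ER, 5 of 10 between mitochondria and ER, 2 of 4 between cytosol and mitochondria and the 1 cytosolic pair. That cytosolic pair, Hsp90ab1 and Hspb1, had r = 0.469 over the 39 arrays. It had 0.627, 0.09 and 0.501 within A, B and C and -0.049 under scaling to equal medians alone. The share called among pairs of other genes on these arrays was not counted. The median r was 0.199 within the ER and 0.298 between cytosol and ER; the difference between these medians was not tested. The arrays share dose groups, experiments and normalisation. Under scaling to equal medians alone, 6 pairs were called, and with each experiment's mean subtracted 18 were, all of these positive.

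Hsp90b1 and Pdia3, the latter read by its brighter probe set 1398788_at, formed the closest pair. Their Pearson r was 0.742 and their Spearman rho 0.715 over 39 arrays, both with a permutation p of 1e-05, the smallest that 100000 resamples can give, and an adjusted p of 0.00036 over 36 pairs. Without the 2 arrays farthest from the median r was 0.703, and under scaling to equal medians it was 0.728. Within experiments it was 0.57 in A, 0.684 in B and 0.732 in C. The second Pdia3 probe set, 1392920_at, correlated with 1398788_at at -0.205 over the 39 arrays and was not set against Hsp90b1. Hsp90ab1 and Hspd1 followed with r = 0.585 and rho = 0.566 (permutation p = 0.00012 and 0.0002, adjusted p = 0.00216 and 0.0036). Within experiments A, B and C, their r was 0.598, 0.578 and 0.68. Across compartments, Hsp90ab1 and Hspa5 had r = 0.523 and rho = 0.54 (permutation p = 0.00065 and 0.00053, adjusted p = 0.00585 and 0.00477), with 0.572, 0.54 and 0.523 within A, B and C. Under scaling to equal medians, r was 0.495 for Hsp90ab1 with Hspd1 and 0.394 for Hsp90ab1 with Hspa5. The 3 pairs named so far kept r above 0.5 in each experiment. So did Hsp90ab1 and Hsp90b1, with 0.544, 0.635 and 0.528 within A, B and C, though their r over the 39 arrays was 0.375. Hspd1 and Canx did not, with r = 0.495 overall (rho = 0.513, permutation p = 0.0012 and 0.0009, adjusted p = 0.00864 and 0.00648) and -0.016 in B. Hspa5 and Hsp90b1, the HSP70 and HSP90 of the same ER folding line, had r = 0.208 (rho = 0.127, permutation p = 0.206 and 0.438, adjusted p = 0.338 and 0.631) over the 39 arrays. Within experiments they had 0.513 in A, 0.675 in B and 0.331 in C.

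The genes whose levels were most like those of Hspa5 and Hsp90ab1 were also listed. Likeness was the Pearson r over 39 arrays after subtraction of each experiment's mean, among 8002 genes, and is given as a description. The 5 genes most like Hspa5 were Cct4, a subunit of the cytosolic chaperonin (0.69), Pdia6, an ER disulfide isomerase (0.68), Hexa, a lysosomal hexosaminidase subunit (0.67), Serpinh1, the ER collagen chaperone HSP47 (0.63), and Sfrp1, a secreted Wnt antagonist (0.62). Because Hspa8 had no probe set of its own, Hsp90ab1 took its place, a choice made after the values were seen. Its 5 nearest were the chaperonin subunit Cct3 (0.72), Mcfd2, which helps export cargo from the ER (0.69), the palmitoyl transferase Zdhhc7 (0.67), the chaperonin subunit Cct5 (0.65) and the nuclear export factor Cse1l (0.65). Of the chaperones described here, Hspd1 came nearest to either, at rank 11 for Hsp90ab1 and rank 30 for Hspa5.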

How the data were processed

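The authors deposited 1 table of signal intensity per probe set on a linear scale, while the sources used here do not give the summarisation software. Of 46 arrays, 39 share an order of probe sets (median r with the others of 0.5 or more). The 7 per-sample columns not used correlated with these at -0.0068 to 0.0025. Each array was brought to the same median, values under the 5th percentile (11.04) were set to it, and log2 values were quantile normalised. The 57 controls and probe sets with a mean under the 30th percentile were left out. Symbols came from the platform table, where 12783 probe sets have 1 symbol, 312 several and 2771 none. A gene with several probe sets was represented by the brightest.

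Groups followed the titles. A second description line of the vehicle arrays of experiment B names 1 mg/kg, against their title and source. Tests were two-sided in limma 3.58.1 (R 4.3.3), tested on simulated data, with a threshold of 0.05 on the adjusted p. By the labels each array is 1 animal. Correlations used python 3.11.15 and scipy 1.17.1 with 100000 permutations, and figures matplotlib 3.10.9. The number of arrays limits the precision. The members and gene lists were chosen with earlier results of these data known, and genes named follow a rule, apart from Pmch, Avp and Oxt, named after their values were seen: the members, the 3 genes of the wider lists with the lowest p at each dose and the 5 most like Hspa5 and Hsp90ab1. Alternatives covered normalisation, floor, filter, single arrays, first-repeat arrays, experiments, the actin ratio and animal number as a block. The promoter windows of Pdia3 and Canx are not reported here.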

Additional observations from a re-analysis of the deposited data

Results flagged for a closer look

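In groups of 4 or 5 arrays, 52 sets of values (13 probe sets in 4 groups) were tested for 1 array far from the others by Dixon's criterion, and 3 stood out, where chance gives about 1 in 20. The Canx probe set 1371687_at read 4.87 in 1 mg/kg animal 1 of experiment C, against 9.26 to 10.14 in the other 3 animals, and this is the array with an actin ratio of 4.72. Hsp90b1 read 11.18 in 10 mg/kg animal 1 of experiment A, against 10.84 to 10.90 in the other 4. Calr read 11.69 in 10 mg/kg animal 1 of experiment C, against 11.61 to 11.62 in the other 3. No chaperone passed the test of a difference of dose effect between experiments.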

How the results depend on the processing

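Of 3777 changes of single chaperone probe sets under alternatives, 0 passed the threshold, and 212 lay on the other side of 0 from the value reported, among them 137 of 3042 with 1 array left out and 14 of 78 under scaling to equal medians alone. With animal number as a replicate block, 0 chaperones were called at any dose. Deviations from the group means of arrays with the same number had a median r of 0.004 (43 pairs, -0.394 to 0.299, 9 over 0.1). For 135 pairs with different numbers the median was 0.003. Whether equal numbers mark paired animals cannot be told from these medians. The count of vehicle differences between experiments was 1 without the first-repeat arrays and 0 to 3 with 1 array left out, against 2. The ER minus cytosolic difference was -0.61 at 5 mg/kg within experiment B, which holds 1 such array, against -0.18, and 0.028 at 50 mg/kg with the mitochondrial genes counted as cytosolic, against -0.51. Correlated pairs numbered 6 under scaling to equal medians, against 13. The causes of the shifts from first-repeat arrays and from scaling were not tested.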
